A study of Mus musculus with 2 samples.

Results

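The 9 genes studied here are known from mast cells and basophils: Cpa3, Gata2, Hdc, Mcpt8, Gzmb, Cyp11a1, Cma1, Ms4a2 and Cd200r3. They were followed in mouse leukemic promyelocytes. They were taken by symbol, and all 9 were found among the 32285 genes that both single-cell count matrices list. They had been chosen with the counts of these libraries known, so their levels and the differences between the libraries are given as a description and without a test. The cells came from leukemic bone marrow transformed by PLZF/RARA, a fusion of the zinc finger protein PLZF with the retinoic acid receptor alpha that is found in a rare, retinoic acid resistant form of acute promyelocytic leukemia. Both groups held late promyelocytes sorted as Cd45.2+, C-Kit+, Gr1+, Cd34- and FcγR+. One group had received 0.8 to 1 mg of retinoic acid into the peritoneum, the other corn oil with 10% DMSO by the same route, called vehicle here, each for 7 days. A cohort held 3 to 5 mice, but how many mice gave cells to a library was not given in the labels. Each group was 1 library, so differences between mice, sorts or preparations cannot be told apart from the treatment, and no p-value was computed.

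The filters left 5476 vehicle cells (99107718 UMIs, each of which marks 1 captured RNA molecule) and 7140 retinoic acid cells (110088247 UMIs). The median cell had 16749.5 and 14604 UMIs, respectively, and 11 cell barcodes occurred in both libraries. Levels are UMIs summed over the cells of a library and scaled to its total (CPM), with an exact 95% Poisson interval. Because UMIs were read at the 3′ end of each RNA, these levels carry no length term. All intervals given cover counting error only.

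Mast cells and basophils store histamine, proteoglycan and proteases in granules and release them when antigen cross-links IgE on the receptor FcεRI. The transcription factor Gata2 is required for both lineages, and basophils arise in the marrow from progenitors that also give granulocytes. Neutrophil promyelocytes fill their primary granules with myeloperoxidase (Mpo), neutrophil elastase (Elane) and cathepsin G (Ctsg). Cathepsin G is also a mast cell protease, so Ctsg by itself does not separate these lineages.

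The promoters of these genes are shown because Gata2 is a member and GATA factors bind short sites. The usual hexamers were searched, AGATAA being the first form, TGATAA the second, AGATAG the third and TGATAG the last. Windows from 250 bases before to 50 bases after the start of transcription were read from RefSeq (GRCm38.p6), and both strands were searched. Such a hexamer occurred in 9778 of 32851 windows of all genes (29.8%), and in 6 of the 11 windows of the members, which belong to 6 genes, namely Cpa3, Hdc, Cyp11a1, Cma1, Ms4a2 and Cd200r3. In Cpa3, Ms4a2 and Cd200r3 a hexamer lay within 50 bases before the start, which held for 5.32% of all windows. Ms4a2 and Cd200r3 each held 3 hexamers, and 1.76% of all windows held at least 3. No hexamer was found in the windows of Mpo, Elane and Ctsg, nor in those of the members Gata2, Gzmb and Mcpt8. For Gzmb, and for the window of Cyp11a1 without a hexamer, the first transcribed bases matched no GENCODE M21 transcript of the gene. Their starts of transcription are therefore not matched by that annotation. The 3 windows with a hexamer near the start and, for contrast, that of Mcpt8 are printed 5′ to 3′ on the strand of the gene, with the hexamers of either strand in capitals. They lie at chr3:20242132-20242431 for Cpa3 (minus strand), chr16:44943428-44943727 for Cd200r3 (plus strand), chr19:11623670-11623969 for Ms4a2 (minus strand) and chr14:56085148-56085447 for Mcpt8 (minus strand). A match of letters describes the sequence and does not show binding.
Cpa3: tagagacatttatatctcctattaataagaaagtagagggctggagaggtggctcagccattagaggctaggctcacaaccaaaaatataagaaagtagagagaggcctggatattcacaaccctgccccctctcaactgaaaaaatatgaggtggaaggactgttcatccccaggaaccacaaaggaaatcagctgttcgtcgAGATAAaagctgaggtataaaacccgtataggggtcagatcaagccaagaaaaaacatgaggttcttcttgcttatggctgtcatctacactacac
Cd200r3: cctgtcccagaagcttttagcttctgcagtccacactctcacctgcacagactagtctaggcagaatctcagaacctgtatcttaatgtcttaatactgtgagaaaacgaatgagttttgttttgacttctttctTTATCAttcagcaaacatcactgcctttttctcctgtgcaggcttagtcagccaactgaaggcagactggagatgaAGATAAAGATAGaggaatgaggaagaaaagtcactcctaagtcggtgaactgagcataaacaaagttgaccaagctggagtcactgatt
Ms4a2: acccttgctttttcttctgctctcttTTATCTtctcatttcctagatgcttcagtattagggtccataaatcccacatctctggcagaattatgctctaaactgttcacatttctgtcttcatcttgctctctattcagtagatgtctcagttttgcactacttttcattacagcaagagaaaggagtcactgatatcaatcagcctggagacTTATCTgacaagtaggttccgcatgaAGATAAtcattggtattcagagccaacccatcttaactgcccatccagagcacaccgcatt
Mcpt8: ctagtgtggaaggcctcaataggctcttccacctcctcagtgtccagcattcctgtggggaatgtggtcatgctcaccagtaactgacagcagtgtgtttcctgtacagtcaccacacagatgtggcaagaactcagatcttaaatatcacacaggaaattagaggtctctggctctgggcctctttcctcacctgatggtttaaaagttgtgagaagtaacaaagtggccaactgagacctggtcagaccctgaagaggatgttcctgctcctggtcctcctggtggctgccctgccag

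The hexamer of Cpa3 began 46 bases before the start. In Cd200r3 an AGATAA at 39 bases before the start was followed without a gap by an AGATAG at 33 bases, and the third, on the opposite strand, began at 115 bases. In Ms4a2 they began 224, 37 and 11 bases before the start.

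Of the 9 genes, 7 were at least 2-fold lower in the retinoic acid library than in the vehicle library, led by Cpa3, which was abundant in one and almost missing from the other. Of all 14561 genes with at least 10 counts over both libraries, 15% were at least 2-fold lower and 5.72% at least 2-fold higher. The median log2 ratio of retinoic acid over vehicle was −5.29 for the members and −0.08 for those genes. Since the contrast had been used to choose the members, nothing is read from that difference. Mcpt8 and Ms4a2 were neither 2-fold lower nor 2-fold higher. In all, 5 members reached 20 CPM in a library (Cpa3, Cyp11a1, Mcpt8, Hdc and Gata2) and 4 of these were at least 2-fold lower, where 5.05% of 5548 genes at that level were lower and 3.03% higher. Ranked by level, the vehicle order was Cpa3, Cyp11a1, Mcpt8, Hdc, Gata2, Gzmb, Cma1, Cd200r3 and Ms4a2, and only the last pair had overlapping intervals. The retinoic acid order was Mcpt8, Cyp11a1, Ms4a2, Hdc, Gata2, Cpa3 and Cma1, with Gzmb and Cd200r3 at 0 counts. Ms4a2 with Hdc, and Cpa3 with Cma1, overlapped there.

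**Figure D1:**
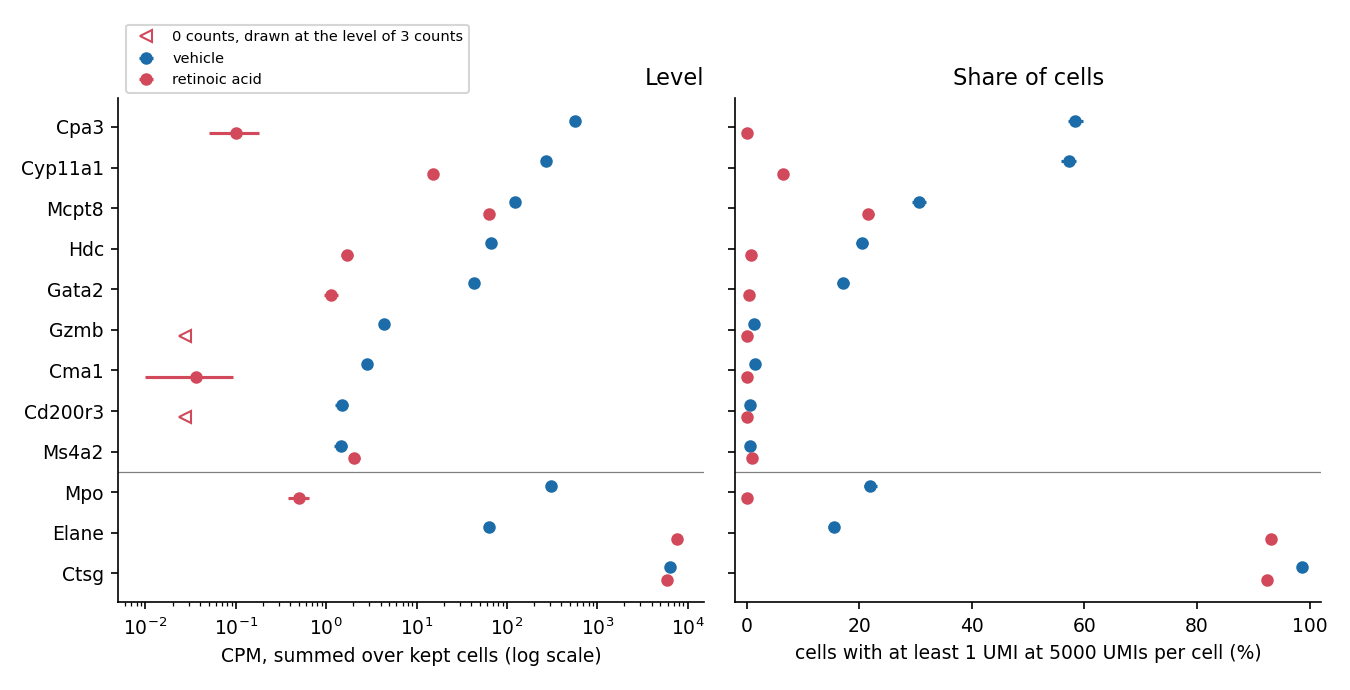
Level of each member, and of Mpo, Elane and Ctsg below the line, in CPM on a log scale (left) and share of cells with a UMI after every cell was set to 5000 UMIs (right), for the vehicle and the retinoic acid library. Bars are 95% intervals for counting error and open triangles mark 0 counts; Cpa3 and Cyp11a1 lead under vehicle, and Mcpt8 leads under retinoic acid.

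The granule proteases of the set span the whole range of differences. Cpa3 (ENSMUSG00000001865, GRCm38 chromosome 3, 20215620 to 20242181, minus strand) encodes the carboxypeptidase A of mast cell granules, which trims peptides such as snake toxins and endothelin. It had 56477 counts, or 570 CPM (565 to 575), under vehicle and 11 counts, or 0.0999 CPM (0.0499 to 0.179), under retinoic acid. That placed Cpa3 at rank 235 of all genes in one library and 13015 in the other, a log2 ratio of −12.41 (−13.48 to −11.64). The 11 counts lay in 9 cells, of which 8 held 1 Cpa3 UMI and 1 held 3. None of these cells had a barcode that also occurred in the vehicle library.

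Mcpt8 (ENSMUSG00000022157, chromosome 14, 56082166 to 56085273, minus strand), mast cell protease 8, is in spite of its name a protease of mouse basophils. It was at 122 CPM (120 to 124) under vehicle and 63.1 CPM (61.6 to 64.6) under retinoic acid, a log2 ratio of −0.95 (−0.99 to −0.90). With every cell given equal weight the ratio was −1.37, which takes it past 2-fold. Cma1 (ENSMUSG00000022225, chromosome 14, 55941451 to 55944675), the mast cell chymase known as Mcpt5, had 278 counts or 2.81 CPM under vehicle and 4 counts or 0.0363 CPM under retinoic acid, a log2 ratio of −6.10 (−8.16 to −4.90). Of the 31-base words near the 3′ end of its transcripts, 23.7% also occur in other genes, most of all in the gene model Gm48934. Some of its reads could thus have been assigned elsewhere. Gzmb (ENSMUSG00000015437, chromosome 14, 56258838 to 56262260), the granzyme B of cytotoxic lymphocytes that basophils and mast cells can also make, had 430 counts or 4.34 CPM under vehicle and 0 under retinoic acid. Taking 3 counts for that 0, Gzmb was at least 159-fold lower.

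Cma1, Mcpt8 and Gzmb lie in 1 cluster of serine protease genes on chromosome 14 together with Ctsg. The cluster held 15 genes between 55941451 and 56262260 (320810 bases), and the end of Mcpt8 and the start of Ctsg in the genome were 14607 bases apart. Neighbours in it behaved unlike each other. Ctsg was at 6444 CPM under vehicle and 5979 CPM under retinoic acid, close to level, and Mcpt8 beside it was 1.93-fold lower. Cma1 and Gzmb at the ends of the cluster were almost or wholly missing under retinoic acid. As many as 7 genes of the cluster had no count in either library, among them Mcpt4, Mcpt1, Mcpt2 and Cma2 of mast cells. Gzme was at 0.706 and 0.518 CPM, and the other granzymes of the cluster had at most 9 counts in a library.

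The transcription factor Gata2 (ENSMUSG00000015053, chromosome 6, 88193891 to 88207032) was at 43.2 CPM (41.9 to 44.5) under vehicle and 1.14 CPM (0.953 to 1.36) under retinoic acid, a log2 ratio of −5.23 (−5.51 to −4.98). Among 18 transcription factors and cofactors that act with GATA proteins or in the same lineages, 17 had at least 10 counts, and 5 of these were at least 2-fold lower, none at least 2-fold higher, where 15% of all genes were lower, with a median log2 ratio of −0.29. Besides Gata2 the lower ones were Gata1 (11.8 and 1.10 CPM), its cofactor Zfpm1 (16.7 and 3.13 CPM), the repressor Gfi1b (2.70 and 0.00908 CPM) and the corepressor Cbfa2t3 (93.5 and 41.9 CPM). The hematopoietic cofactor Lmo2 (205 and 198 CPM), the myeloid factor Spi1 (173 and 293 CPM) and Cebpa (47.2 and 40.2 CPM) were within 2-fold. Mitf, the master factor of mast cells, was low in both at 1.67 and 2.04 CPM. Gata1, Zfpm1, Gfi1b and Mitf lay under 20 CPM and were named after their values were seen.

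Hdc and Cyp11a1 encode enzymes. Hdc (ENSMUSG00000027360, chromosome 2, 126593667 to 126619299), histidine decarboxylase, makes histamine. It was at 67.0 CPM (65.4 to 68.6) under vehicle and 1.71 CPM (1.47 to 1.97) under retinoic acid, a log2 ratio of −5.29 (−5.51 to −5.08). Slc18a2, which loads histamine into granules, was near the limit in both libraries with 21 and 26 counts. Cyp11a1 (ENSMUSG00000032323, chromosome 9, 58006411 to 58027023) cleaves the side chain of cholesterol to pregnenolone, the first step of steroid synthesis, and basophils are among the immune cells in which it has been found. It was at 268 CPM (265 to 272) under vehicle and 15.1 CPM (14.4 to 15.9) under retinoic acid, a log2 ratio of −4.15 (−4.22 to −4.08). Of 10 steroid synthesis genes, 6 had at least 10 counts and Cyp11a1, a member chosen on this contrast, was the 1 at least 2-fold lower, where 15% of all genes were. Its electron donors were close to level, Fdx1 at 61.5 and 55.3 CPM and Fdxr at 27.4 and 23.0 CPM. Hsd3b1, Hsd3b6 and Cyp17a1, which act after it, and its regulator Nr5a1 had no counts, and all 4 were named after their values were seen.

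The surface receptors were the rarest members under vehicle. Ms4a2 (ENSMUSG00000024680, chromosome 19, 11615523 to 11623719), the beta chain of FcεRI, had 144 counts or 1.45 CPM (1.23 to 1.71) under vehicle and 226 counts or 2.05 CPM (1.79 to 2.34) under retinoic acid. Its log2 ratio was 0.50 (0.19 to 0.81), and no other member was higher under retinoic acid. The nearby gene Ms4a3, which is a marker of granulocyte and monocyte progenitors, was at 850 CPM and 2087 CPM. Cd200r3 (ENSMUSG00000036172, chromosome 16, 44943678 to 44981380), an activating receptor of mast cells and basophils, had 147 counts or 1.48 CPM (1.25 to 1.74) under vehicle and 0 under retinoic acid, at least 54.4-fold lower. Its neighbour Cd200r4 was at 7.15 and 0.363 CPM, and Cd200r1 at 3.50 and 2.20 CPM.

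The alpha chain of FcεRI, Fcer1a, which binds IgE, had no count in either library. The shared gamma chain Fcer1g was abundant at 1328 and 879 CPM. Of 14 genes of FcεRI signalling, 13 had at least 10 counts, and only the adaptor Lat2 (118 and 41.7 CPM) and the kinase Fyn (10.2 and 1.53 CPM, named after its value was seen) were at least 2-fold lower, a share close to the 15% of all genes, with a median log2 ratio of −0.35. The kinases Lyn (24.6 and 38.4 CPM) and Syk (21.2 and 33.4 CPM) were within 2-fold. Granule storage genes were also within 2-fold in 8 of the 9 with enough counts, among them the proteoglycan core Srgn (2171 and 1811 CPM) and Cd63 (1912 and 1688 CPM).

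Other mast and basophil genes did not share one pattern. Of 19 further mast cell genes, 11 had no count in either library, among them the tryptases Tpsb2 and Tpsab1 and the chymase Mcpt4, which define connective tissue mast cells. Of the 7 with at least 10 counts, 2 were at least 2-fold lower and 5 within 2-fold, where 15% of all genes were lower. Of 19 basophil genes, which include Cpa3 and Gata2, 16 had enough counts and 11 of these were at least 2-fold lower, none higher, where 15% of all genes were lower, with a median log2 ratio of −3.18. Cpa3 and Gata2 had been chosen on this contrast. Among the lower ones the integrin chain Itgb7 was at 97.4 and 6.09 CPM, and Ifitm1 at 7388 and 1694 CPM. The receptor chain Il3ra was at 60.1 and 30.8 CPM, which is within 2-fold. The lipoxygenase Alox5 was at 43.7 and 57.3 CPM. Prss34, the basophil protease mMCP-11, had 6 and 0 counts. With Fcer1a, the tryptases and Mcpt4 at 0, no cell here was called a mast cell or basophil.

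Markers of other lineages were read beside the members. Of all genes with at least 10 counts over both libraries, 15% were at least 2-fold lower, the share to set beside each count below. The lists hold few genes with enough counts, so their counts of lower genes are coarse. Of 7 lymphoid markers, 4 had enough counts and 2 of these were at least 2-fold lower, and the list summed to 4.75 CPM under vehicle and 2.62 CPM under retinoic acid. Cd3e was at 0 in both libraries, while Cd79a was at 1.998 and 1.926 CPM. Of 12 cytotoxic cell genes, 5 had enough counts and 2 were lower. Their sum of 1889 and 885 CPM was nearly all Nkg7 (1283 and 575 CPM) and Thy1 (604 and 310 CPM), with Prf1 at 1 count in each library. The T cell receptor gene Tcrg-C1, which is on neither list, was at 177 and 14.7 CPM. The 8 megakaryocyte markers summed to 29.6 and 1.46 CPM, of which Itga2b made 28.9 and 0.491 CPM, and Pf4 had 8 and 7 counts. Of the 6 megakaryocyte markers with enough counts, 2 were lower and 2 at least 2-fold higher, where 5.72% of all genes were higher. The 8 red cell markers summed to 4.23 and 0.781 CPM, with 3 of the 4 that had enough counts lower. The 8 monocyte and dendritic cell markers summed to 10.03 and 4.64 CPM, with 2 of 5 lower and Siglech at 0. The 9 eosinophil genes summed to 126 and 34.8 CPM, and all 6 with enough counts were lower, with the peroxidase Epx at 55.3 and 5.92 CPM and the major basic protein Prg2 at 45.7 and 20.5 CPM. The secondary granule genes of neutrophils, Camp, Ngp, Ltf and Lcn2, summed to 1114 CPM under vehicle and 34036 CPM under retinoic acid. Cd34, whose product the sort selected against, had 5336 counts (53.8 CPM) under vehicle and 13 (0.118 CPM) under retinoic acid. The part of these genes and their cells in the lower levels of the members was not tested.

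How widely the members were expressed was measured in cells thinned at random to 5000 UMIs, at which 1 UMI equals 200 CPM. This left 5282 vehicle and 6659 retinoic acid cells. Cpa3 was detected in 3084 vehicle cells, 58.4% (57.0 to 59.7, Clopper-Pearson), and in 3 retinoic acid cells, 0.0451%. Cyp11a1 was detected in 57.2% of vehicle and 6.38% of retinoic acid cells, Mcpt8 in 30.5% and 21.6%, Hdc in 20.4% and 0.736%, and Gata2 in 17.1% and 0.481%. Without thinning these vehicle shares were 72.6%, 81.7%, 60.4%, 42.3% and 40.8%, in the same order. Gzmb, Cma1, Cd200r3 and Ms4a2 were each found in at most 1.40% of thinned vehicle cells. Ms4a2 was found in 1.01% of retinoic acid cells, and Gzmb and Cd200r3 in 0 of 6659, which, taking 3 cells for the 0, allows a share of cells with a UMI of up to 0.0451%.

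The counts of Cpa3 and Cyp11a1 were spread over many cells, and those of Gata2, Mcpt8 and Hdc less evenly. The 54 vehicle cells with most UMIs of a gene, about 1 in 100, held 8.57% of the Cpa3 counts and 7.86% of the Cyp11a1 counts. The same share was 13.03% for Gata2, 18.8% for Mcpt8 and 21.7% for Hdc. For Gzmb that share was 79.5%, for Cma1 64.7%, for Ms4a2 47.2% and for Cd200r3 92.5%. These 4 were found in 142, 149, 130 and 65 vehicle cells, in the same order, and so few cells by themselves make that share high. Free RNA in the droplets can give a UMI in a cell that does not express the gene. Vehicle cells with at least 5% of UMIs in the secondary granule genes, which are the farthest from the sorted stage, were few (32 cells, median depth 9210 UMIs). In them Cpa3 was found in 6.25% (0.766 to 20.8) of cells, Hdc in 3.13% (0.0791 to 16.2), Gata2 in 6.25% (0.766 to 20.8), Cyp11a1 in 21.9% (9.28 to 39.97) and Mcpt8 in 0 of 32, which by the same rule allows up to 9.38%. For Gata2 the interval of these few cells includes the share in the whole library, and for Cpa3, Hdc and Cyp11a1 it lies below it. Ctsg was found in 37.5% of these cells, against 98.6% of all thinned vehicle cells.

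More than 1 member was found in most vehicle cells. At 5000 UMIs, 85.8% of vehicle cells held at least 1 of the 9 genes, 58.8% at least 2, 27.9% (26.7 to 29.2) at least 3 and 3.48% at least 5. In the retinoic acid library 28.5% held at least 1, 1.71% at least 2 and 0.0751% at least 3. The highest number in a cell was 8 members under vehicle and 3 under retinoic acid. Depth before thinning went the other way, from a median of 19073.5 UMIs in vehicle cells with none to 11054.5 in those with 6.

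**Figure D2:**
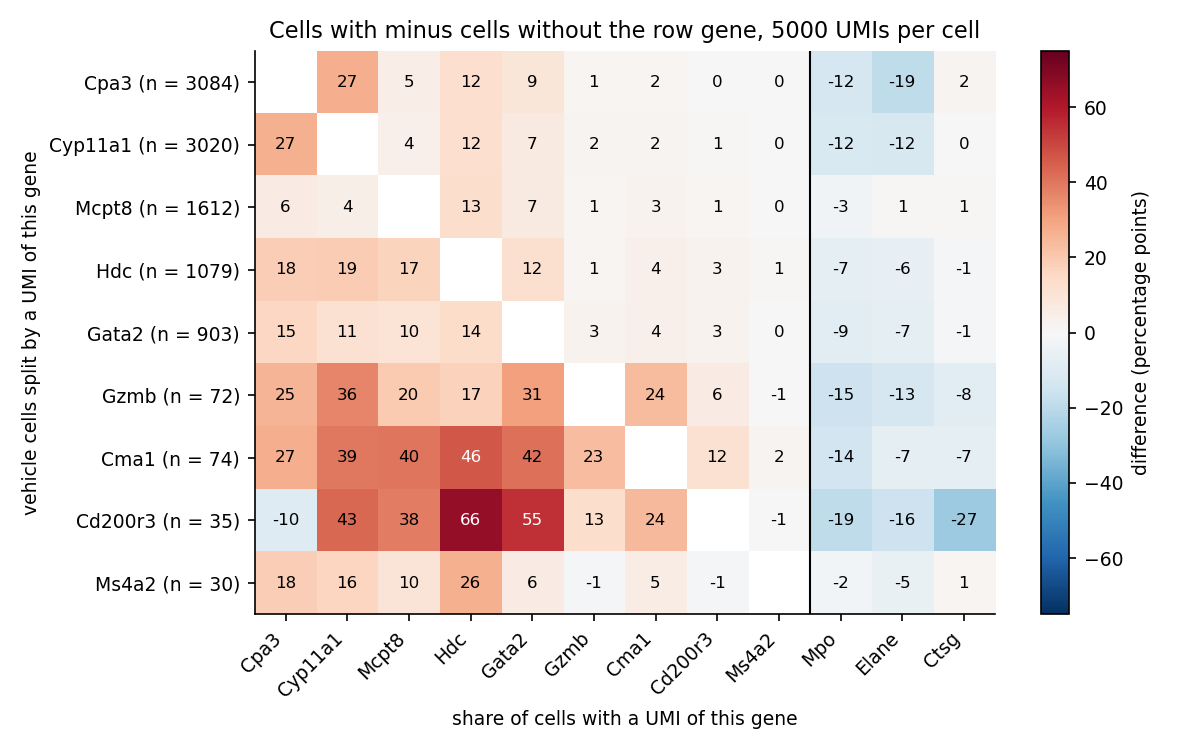
Vehicle cells at 5000 UMIs were split by a UMI of the row gene (n, cells with it), and each square gives the share of cells with the column gene in cells with minus cells without the row gene, in percentage points. Squares among the 9 members are mostly red and those under Mpo and Elane mostly blue, with exceptions such as Cd200r3 with Cpa3 and Mcpt8 with Elane. The Cd200r3 row has the deepest red for Hdc (66) and Gata2 (55).

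Cells with 1 member mostly held the others more often than cells without it. Of 36 pairs of members, 33 had a positive Pearson correlation over the 5282 vehicle cells, with a median of 0.16 and a range from −0.02 to 0.39. These are descriptions over cells of 1 library, and sparse counts keep such values small. The share of positive pairs among all genes was not computed, so 33 of 36 has no background to be read against. For Ms4a2 with Gata2, Mcpt8 and Cyp11a1, which were positive, the interval of the difference in detection holds 0. Cpa3 went most closely with Cyp11a1, which was detected in 68.4% of cells with Cpa3 and 41.4% of cells without it, a difference of 27.0 percentage points (24.4 to 29.6, Newcombe). The same difference was 12.3 points (10.2 to 14.4) for Hdc, 8.94 points (6.95 to 10.9) for Gata2 and 5.21 points (2.70 to 7.68) for Mcpt8. Hdc with Mcpt8 (r = 0.31) and Hdc with Gata2 (r = 0.28) were closer to each other than either Mcpt8 or Gata2 was to Cpa3 (r = 0.15 and 0.17). The 3 pairs that were not positive were Cd200r3 with Cpa3, Cd200r3 with Ms4a2 and Gzmb with Ms4a2. The intervals of all 3 differences hold 0, and no thinned cell held Ms4a2 together with Cd200r3 or Gzmb. Before thinning, Ms4a2 was found in 7.69% of vehicle cells with Cd200r3 and 2.31% of those without it. For Gzmb these shares were 2.82% and 2.36%, so the signs of these pairs are not settled.

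Over the same cells the genes most like Cpa3, among 5172 with at least 20 CPM, were Cyp11a1 (r = 0.39), the aldo-keto reductase Akr1c13 (0.38), Rps24 (0.35), Tcrg-C1 (0.33) and Ldhc (0.32). The genes least like it were Ms4a3 (−0.46), Hmgb2 (−0.34), Ptma (−0.31), S100a9 (−0.29) and Stmn1 (−0.27). Cyp11a1 was thus first of all genes in likeness to Cpa3, while Hdc ranked 57, Gata2 74 and Mcpt8 100.

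The promyelocyte granule genes split in their overlap with Cpa3. Ctsg was found in nearly every vehicle cell, 99.4% of those with Cpa3 and 97.5% of those without. Mpo was found in 16.8% of cells with Cpa3 and 29.2% of cells without it, a difference of −12.4 points (−14.7 to −10.1). For Elane the shares were 7.39% and 26.7%, a difference of −19.3 points (−21.4 to −17.3). Both genes therefore occurred with Cpa3 in the same cells, and less often than without it. Cells with both Cpa3 and Mpo numbered 519 (9.83%, 9.04 to 10.7), cells with Cpa3 without Mpo 2565 (48.6%), with Mpo without Cpa3 642 (12.2%) and with neither 1556 (29.5%).

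In those 4 classes the abundant members were highest in cells with Cpa3 and without Mpo. Cyp11a1 was at 432 CPM in cells with Cpa3 and without Mpo, 241 CPM in cells with both, 196 CPM with neither and 114 CPM with Mpo alone. Gata2 was at 66.7, 33.9, 33.0 and 21.5 CPM in the same order, and Hdc at 113, 55.9, 45.2 and 29.6 CPM. Mcpt8 was at 177, 103, 82.3 and 68.2 CPM. The rare members did not all share this order. Cd200r3 was at 1.87, 0, 4.24 and 0.31 CPM and so highest in cells with neither, and Gzmb was at 9.51, 2.70, 4.88 and 0 CPM. Elane ran the other way, at 11.8, 64.7, 81.9 and 164 CPM. For Cyp11a1, Gata2, Hdc, Mcpt8 and Elane, cells with both Cpa3 and Mpo thus lay between the classes with only one of them. Before thinning 1124 cells held both, and 115 of them were among the 274 vehicle cells with the highest doublet scores. Those 274 cells are 5% of the vehicle cells and were deeper, with a median of 30345.5 UMIs against 16358 in the rest. The part of depth in that overlap was not tested.

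Graded by the number of Cpa3 UMIs, vehicle cells with more Cpa3 had more of the abundant members. From cells with 0 to cells with 16 or more Cpa3 UMIs (2198 and 210 cells), Cyp11a1 went from 172 CPM (164 to 180) to 762 CPM (710 to 817). Hdc went from 40.7 to 168 CPM, Gata2 from 29.7 to 104 CPM and Mcpt8 from 78.2 to 241 CPM. Mpo went from 409 CPM (397 to 421) to 42.9 CPM (31.3 to 57.3) and Elane from 106 CPM (99.8 to 112) to 7.62 CPM (3.29 to 15.01). Ctsg was at 6775 and 4849 CPM, a small difference beside these.

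The cells also differed in other ways along that grading. A list of 12 cell cycle genes summed to 1312 CPM in cells without Cpa3 and 209 CPM in those with most, and Ms4a3 was at 1043 and 166 CPM. The secondary granule genes were at 2864 and 257 CPM, Gata1 at 7.64 and 42.9 CPM. The median depth before thinning was 18325 and 14166.5 UMIs. The part of cycle, maturation and depth in the grading was not tested.

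**Figure D3:**
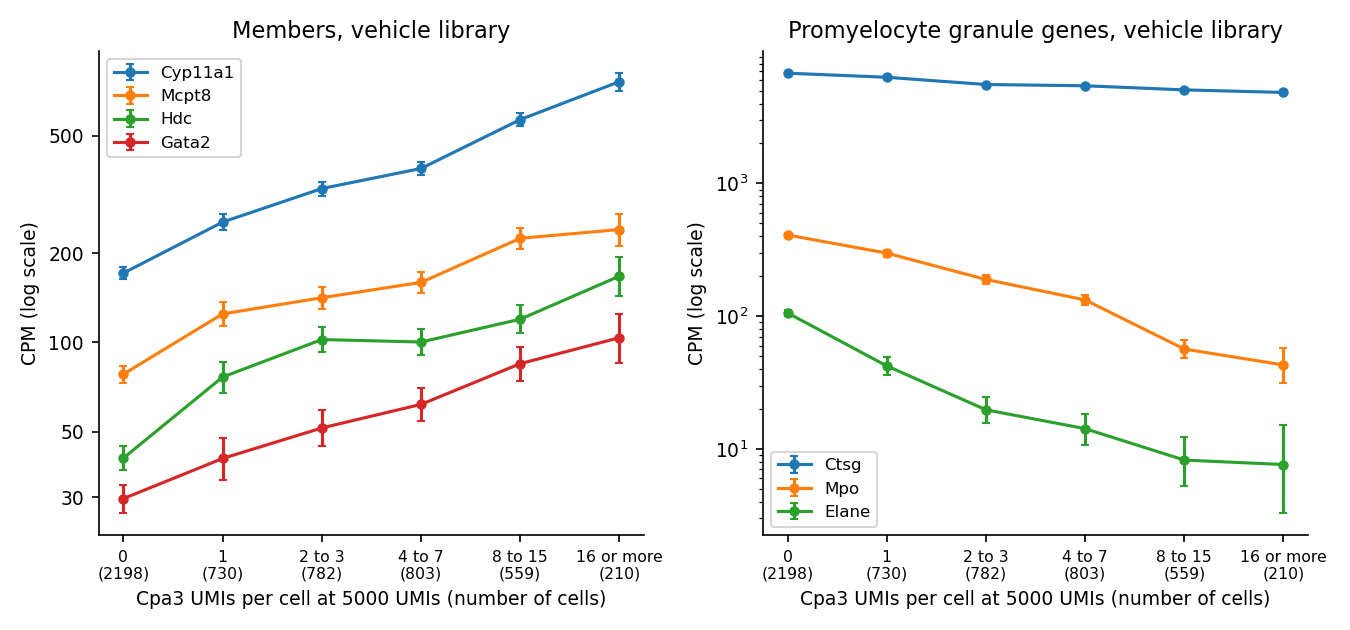
Vehicle cells grouped by their number of Cpa3 UMIs at 5000 UMIs per cell (cells per group in parentheses), with the level of 4 members (left) and of Ctsg, Mpo and Elane (right) in CPM on log axes; bars are 95% Poisson intervals. Cyp11a1 is at 172 CPM without Cpa3 and 762 CPM at 16 or more Cpa3 UMIs, Mpo at 409 and 42.9 CPM, and Ctsg at 6775 and 4849 CPM.

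Overlap with Mpo and Elane differed between members. Cells with Cyp11a1 held Mpo and Elane less often than cells without it, by 11.5 and 12.3 points, and cells with Gata2 by 8.61 and 7.12 points. For Mcpt8 the difference was −2.89 points (−5.22 to −0.47) for Mpo and 0.83 points (−1.26 to 3.01) for Elane, an interval that holds 0. Ms4a2 was found in 30 vehicle cells, and its intervals for both genes hold 0. Of the 35 thinned cells with Cd200r3, 1 held Mpo, none held Elane and 25 held Ctsg. Ctsg was found in nearly every vehicle cell and so is compared by level. It was at 5433 CPM in cells with Cyp11a1 and 6926 CPM in cells without it (r = −0.33). For Gata2 it was at 5160 and 6260 CPM (r = −0.19), and for Hdc at 5617 and 6189 CPM (r = −0.17). These correlations were more negative than those of the same members with Mpo or Elane. For Cpa3 (r = −0.12) and Mcpt8 (r = 0.007) that did not hold.

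Mcpt8 was graded in the same way. Under vehicle, cells with 4 or more Mcpt8 UMIs (196 cells) had Hdc at 516 CPM, against 47.0 CPM in the 3670 cells without Mcpt8. Cyp11a1 was at 1162 and 254 CPM, Cpa3 at 1513 and 599 CPM, Mpo at 33.7 and 279 CPM. Eosinophil genes were also high in these cells, with Epx at 927 CPM (867 to 989) against 20.9 CPM and Prg2 at 518 CPM against 14.8 CPM. Epx was detected in 34.7% of them, so most cells with high Mcpt8 held no Epx UMI. The part of eosinophil-type cells in the vehicle level of Mcpt8 was not tested.

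Under retinoic acid Mcpt8 went with primary granule genes. The genes most like it over 6659 cells were Ctsg (r = 0.27), Srgn (0.22), Elane (0.22), Ms4a3 (0.21) and Prtn3 (0.19), named after their values were seen. Elane was found in 99.2% of cells with Mcpt8 and 91.4% of cells without it, and Ctsg in 99.6% and 90.5%. Cyp11a1 was found in 4.24% of cells with Mcpt8 and 6.97% of cells without it. In the vehicle library that last pair had the opposite sign, 60.3% and 55.8%. The gene that was most like Mcpt8 under vehicle was Hdc (r = 0.31).

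The retinoic acid cells were divided into 4 groups of 1664 or 1665 cells by their share of secondary granule UMIs, whose median ran from 0.300% in the first to 11.7% in the last. Mcpt8 was at 75.9 CPM (70.1 to 82.1) in the first group, 77.96 CPM in the second, 53.3 CPM in the third and 14.5 CPM (12.1 to 17.4) in the last. Ctsg ran from 8339 to 1042 CPM and Elane from 8659 to 2728 CPM over the same groups. Cyp11a1 was at 21.02 CPM in the first and 9.86 CPM in the last. Ms4a2 was at 1.80, 2.64, 2.28 and 1.56 CPM, and its shares of cells in the first and last group, 0.901% (0.505 to 1.48) and 0.781% (0.417 to 1.33), had overlapping intervals. Median depth was 18008 UMIs in the first group and 10746.5 in the last, and the secondary granule genes are themselves part of the total. Cpa3 was at most at 0.24 CPM in any group.

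**Figure D4:**
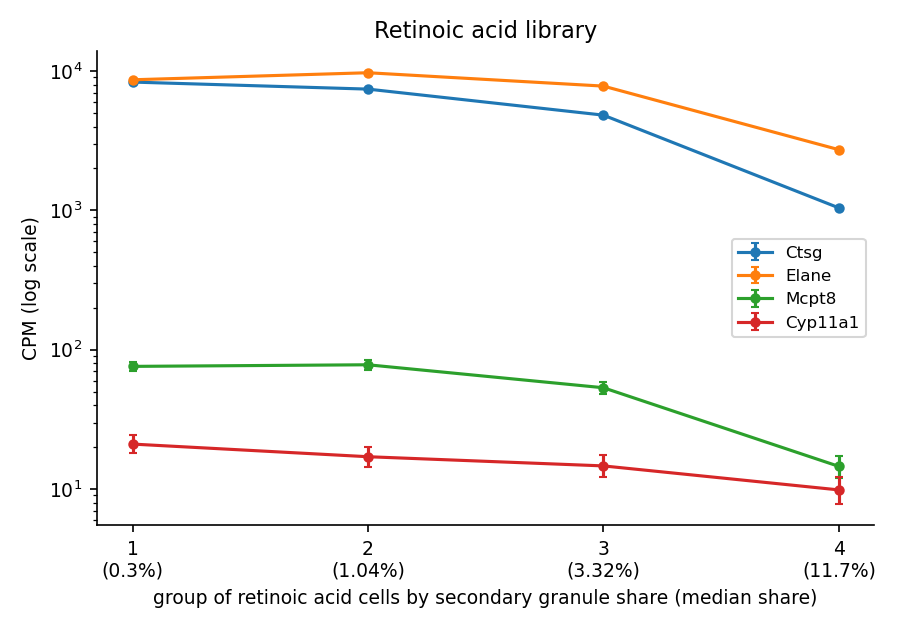
Level of Ctsg, Elane, Mcpt8 and Cyp11a1 in CPM (log axis) in 4 groups of the retinoic acid cells, ordered by the share of UMIs in secondary granule genes (median share in parentheses); bars are 95% Poisson intervals. Mcpt8 is at 75.9 CPM in the first and 14.5 CPM in the last group, and Ctsg goes from 8339 to 1042 CPM.

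The few counts of Hdc and Gata2 under retinoic acid lay mostly in cells with 1 UMI. Hdc had 188 counts in 146 cells, 126 of which held 1 UMI, and Gata2 had 126 counts in 110 cells, 97 of which held 1. At 5000 UMIs, Elane was found in 81.6% of cells with Hdc and 93.2% of cells without it, a difference of −11.5 points (−24.5 to −3.11). For Gata2 the shares were 78.1% and 93.1%, a difference of −15.02 points (−31.9 to −4.15). In the 4 groups by secondary granule share, Hdc was at 3.72 CPM (2.53 to 5.29) in the first and 0.60 CPM (0.20 to 1.40) in the last, and Gata2 at 1.32 and 1.08 CPM. The cell with most Gata2 UMIs, 5, had 1363 UMIs in all, of which 9 were of other members, 0 of Elane and 1 of Ctsg. Mpo had 55 counts in 3 cells, and 53 of these lay in 1 cell.

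Cd200r3, Cma1 and Gzmb marked overlapping small sets of vehicle cells. Before thinning, 65 cells held Cd200r3, 149 held Cma1 and 142 held Gzmb. Of the 65 with Cd200r3, 27 held Cma1 and 17 held Gzmb, which is 18.1% of the Cma1 cells and 11.97% of the Gzmb cells. Cells with Ms4a2 numbered 130. Ms4a2 was found in 5 of the 65 Cd200r3 cells (7.69%), against 2.31% of the other vehicle cells. Its level was 11.8 CPM (5.40 to 22.4) in them and 1.37 CPM in the others. It was found in 6.71% of the Cma1 cells against 2.25% of the others, and in 2.82% of the Gzmb cells against 2.36%. These sets were chosen by the members themselves, and the values that follow describe them.

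Of these sets, the Cd200r3 cells had the highest levels of Hdc, Cyp11a1, Mcpt8 and Gata2. Hdc was at 1133 CPM (1059 to 1211) in them and 58.7 CPM in the other vehicle cells. Cyp11a1 was at 2031 and 255 CPM, Mcpt8 at 800 and 116 CPM, Gata2 at 411 and 40.4 CPM. Cpa3 differed little, at 739 CPM (679 to 803) against 569 CPM, and was detected in 58.5% of them against 72.8% of the others. Mpo was at 3.94 CPM against 314 CPM, and Elane at 1.31 CPM against 63.3 CPM. Ctsg was at 1941 CPM against 6479 CPM, present and lower.

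Several cytokine and receptor genes were also higher in these cells. Il4 was at 127 CPM (103 to 155) against 13.8 CPM, Il13 at 165 CPM (138 to 197) against 1.62 CPM and Il6 at 119 CPM (96.2 to 147) against 1.56 CPM. Il1rl1, the receptor for interleukin 33, was at 105 and 1.74 CPM, and Cd200r4 at 365 and 4.38 CPM. Il3ra differed less, at 108 and 59.7 CPM. Genes with at least 50 CPM in these cells were ranked by the ratio of CPM, with 1 CPM added to each. After Cd200r3 itself came Ly6g, at 2281 CPM against 18.3 CPM, Ccdc80 (110 and 0.173 CPM) and Slc6a4 (130 and 0.630 CPM). Their order depends on the added 1 CPM. The chemokine Ccl6 was at 4850 and 89.4 CPM. Il4, Il13, Il6, Il1rl1, Ccdc80, Slc6a4 and Ccl6 were named after their values were seen. Fcer1a, Mcpt4, Tpsb2, Tpsab1 and Prss34 had 0 counts in the 65 cells, and Epx was at 68.3 CPM against 55.2 CPM. The median depth of these cells was 10310 UMIs, against 16797 for the others.

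**Figure D5:**
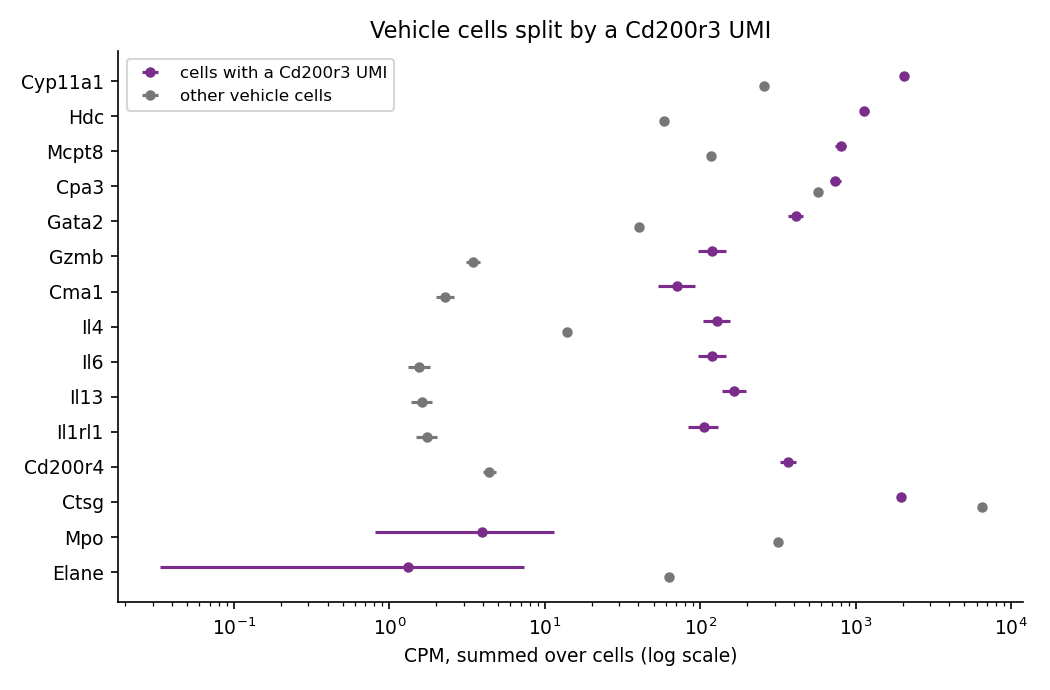
Level in CPM (log axis) of members, cytokine and receptor genes and Ctsg, Mpo and Elane in the 65 vehicle cells with a Cd200r3 UMI and in the other vehicle cells; bars are 95% Poisson intervals. Hdc is at 1133 and 58.7 CPM and Il13 at 165 and 1.62 CPM, while Mpo is at 3.94 and 314 CPM.

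Cells with Cma1 and cells with Gzmb held more Cpa3 than the Cd200r3 cells. Cpa3 was at 1338 CPM in cells with Cma1 and 1236 CPM in cells with Gzmb, each over 2-fold the level in the remaining vehicle cells (550 and 555 CPM). Hdc was at 424 and 248 CPM in them, against 57.7 and 62.9 CPM. Epx separated the sets, at 484 CPM in cells with Cma1 and 49.1 CPM in cells with Gzmb. Mpo was at 159 CPM in cells with Cma1 and 59.2 CPM in cells with Gzmb, where the remaining cells had 315 and 317 CPM. Prf1, which cytotoxic lymphocytes express with Gzmb, had 0 counts in the 142 cells with Gzmb. Without the 65 Cd200r3 cells, a setting chosen after seeing the data, the log2 ratio of retinoic acid over vehicle was −0.88 for Mcpt8 and −4.07 for Cyp11a1.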

How the data were processed

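Single-cell RNA libraries of sorted late promyelocytes were made with 10x Genomics 3′ chemistry, per the labels' protocols, at a target of 6000 cells each. What was deposited are unnormalised UMI counts for each gene and cell; the file headers name Cell Ranger 4.0.0, and the submitters' processing notes name mm10 and GRCm38.p4. The annotation release, the rule that called cells and any removal of doublets are not given in the sources used here. The matrices held 5786 (vehicle) and 7416 (retinoic acid) barcodes. Cells with at least 1000 UMIs, at least 500 genes and at most 10% mitochondrial UMIs were kept, which removed 310 and 276.

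The 9 members, the gene lists and the rules were chosen with earlier results of these data known. Named genes were the members, Mpo, Elane and Ctsg, list members with at least 20 CPM or in a chromosome cluster with a member, the 5 genes most and least like Cpa3, and defining markers of other cell types. CPM were computed from counts summed over cells; log2 ratios had 0.5 counts added and carry an exact binomial interval. A count of 0 allows 3 counts, which is 0.0303 CPM (vehicle) and 0.0273 CPM (retinoic acid). For values per cell, each cell was thinned to 5000 UMIs, which left out 194 and 481 shallower cells. Scrublet (scanpy 1.11.5) called 1 and 7 doublets, too few to be taken as working, and none were removed. Of the genes, 32158 matched GENCODE M21 by identifier, which gave the GRCm38 positions. RefSeq promoter windows were found for all 9 members. Counting and thinning were tested on simulated data. TMM factors came from edgeR 4.0.16; other software was Python 3.11.15, numpy 2.4.6, pandas 2.3.3 and scipy 1.17.1.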

Additional observations from a re-analysis of the deposited data

How the results depend on the processing

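Of 106 values under the alternatives, 83 lay inside the interval for counting error, or within 1.5 times a reported count, and 23 outside it. Among the 83, the member count without a limit on counts was the reported 7 carried over and not recomputed. No log2 ratio and no difference in detection changed sign. Counts of members and shares of cells cannot be negative, so a change of direction was not possible for them. The number of members at least 2-fold lower was 7 in the reported setting and 8 with equal weight for every cell, where Mcpt8 was at −1.37. It was 6 without the cells that hold a Cd200r3 UMI, a setting that leaves no count of Cd200r3 itself. Equal weight gave −10.81 for the log2 ratio of Cpa3. TMM scaling raised every log2 ratio by 0.0802, which gave −0.87 for Mcpt8 and −4.07 for Cyp11a1.

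Values per cell depended on the depth to which cells were thinned, since fewer UMIs detect fewer genes. The share of vehicle cells with a Cpa3 UMI was 51.2% at 3000 UMIs per cell, 66.7% at 10000, 72.6% without thinning and 44.6% when 2 UMIs were required. The share with at least 3 members was 18.3%, 48.4%, 65.9% and 8.80% in the same order. The difference in Gata2 detection between cells with and without Cpa3 was 5.34, 11.6, 15.4 and 4.02 points in that order. The difference in Mpo detection was −7.30 points without thinning. Over 20 random draws the Cpa3 share ran from 57.4% to 58.7%, the Mpo difference from −13.1 to −10.8 points and the Gata2 difference from 7.69 to 9.54 points. The Cyp11a1 difference ran from 22.7 to 30.5 points, wider than its interval, and the Hdc difference from 12.3 to 14.96 points (median 13.7), of which the reported value is the lowest. No paired analysis was possible because 1 library stood for each group. No setting measures the spread between mice, and the 4 members under 5 CPM rest on few cells.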
